A study of Homo sapiens with 23 samples.

Results

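This section describes the 13 mRNAs encoded by the mitochondrial genome and 25 nuclear genes that replicate, transcribe and process that genome's nucleic acids, in PC-3 cells induced to express PARG. The members were taken by name from the deposited gene table, and all 38 have a row among its 21463. PC-3 is an established human prostate carcinoma line, and PARG is the enzyme that cuts poly(ADP-ribose) chains off proteins. The cells carried a lentiviral TetOne construct with PARG cDNA and a cleavable mClover3, and 2 clones grown from single cells, named I4 and H6, were kept for 72 h without doxycycline or with 500 ng/ml of it. Both the untreated and the treated wells of a clone carry the construct, and cells without it were not analysed here, so doxycycline and PARG cannot be told apart. Experiment N used cells at passage 5, with libraries in which the 2 strands are not told apart. Experiment B used cells at passage 7, and another provider sequenced its libraries, which were strand-specific. Each of the 8 groups has 3 wells, except untreated H6 in experiment B with 2, so every spread is among wells of 1 clone.

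Mitochondrial DNA is a small circular genome present in many copies per cell. Its 13 mRNAs encode core subunits of respiratory complexes I, III and IV and of ATP synthase, whose other subunits come from nuclear genes. The RNA polymerase POLRMT, with TFAM and TFB2M, copies both strands into long polycistronic transcripts that are cut at the tRNAs, after which each mRNA's level depends on its own stability. The heavy-strand promoter yields 12 of the mRNAs, and MT-ND6 is the member read from the opposite template. Complex IV, cytochrome c oxidase, is the site of oxygen use, and ATP synthase makes ATP from the proton gradient.

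Some neighbouring genes share bases, which bears on how their reads are counted. The mRNA of MT-ATP8 also carries MT-ATP6, and that of MT-ND4L also carries MT-ND4. The reference sequences of the shorter gene of each pair are given because MT-ATP8 gave the largest fall of the 13 mRNAs in experiment N, while MT-ND4L, placed alike on its mRNA, gave one of the smaller. They are the plus strand of GRCh38 from the GENCODE v29 transcripts, and capitals mark the bases shared with the next gene. MT-ATP8 spans chrM:8366-8572, 207 bases of which the last 46 lie in MT-ATP6, and MT-ND4L spans chrM:10470-10766, 297 bases of which the last 7 lie in MT-ND4.
MT-ATP8: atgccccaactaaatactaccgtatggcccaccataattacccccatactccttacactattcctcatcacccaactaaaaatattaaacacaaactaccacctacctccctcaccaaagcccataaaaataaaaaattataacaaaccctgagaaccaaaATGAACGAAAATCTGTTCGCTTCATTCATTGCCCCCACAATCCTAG
MT-ND4L: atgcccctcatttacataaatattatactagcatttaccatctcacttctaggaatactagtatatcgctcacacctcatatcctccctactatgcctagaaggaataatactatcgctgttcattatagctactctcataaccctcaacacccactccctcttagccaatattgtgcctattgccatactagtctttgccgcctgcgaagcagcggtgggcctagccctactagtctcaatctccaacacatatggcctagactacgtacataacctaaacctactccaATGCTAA

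For each clone and experiment, the authors' deposited table sets doxycycline against none and lists a mean level (that of whichever group was higher), a fold and a q-value (an adjusted p). The level was read as RPKM, a read count divided by exon length and by library depth. A gene was called changed at q under 0.05, by the authors' own test, whose name no source used here gives. No value per well was analysed, so no SD is given and the levels of the lower group are implied, the listed mean divided by the fold. Depth, worked out from the level that a single read gives the least expressed genes, was 33.7 to 43.2 M reads per library in experiment N and 19.2 to 26.5 M in experiment B. In experiment N 11 such depths were found, fewer than its libraries. At the lowest depth, the 13 mRNAs then rest on at least 2015 reads per library in experiment N and 941 in experiment B, at the listed mean. The lower group of each comparison rests on fewer at that depth. Of the markers of the line, KRT18 was listed at 101 to 127 RPKM and KRT8 at 25.1 to 55.9 RPKM, while CDH1 stayed at or under 0.394 RPKM. Fold directions were read from PARG, whose sign is the same throughout. In the authors' deposited table PARG rose 1.35-fold (experiment N) and 1.40-fold (experiment B) in I4, and 2.15-fold and 1.99-fold in H6.

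In experiment N nearly all mitochondrial mRNAs fell in clone I4 and some fell in H6, and in experiment B none was called lower. In the authors' deposited table, 12 of 13 were called lower with doxycycline in I4 and 5 of 13 in H6, with none called higher in either. Among all genes tested, 8.53% were called lower and 7.18% higher in I4 in experiment N, and 7.07% and 6.57% in H6. Among genes of at least 100 RPKM, where each of the 13 lies in experiment N, 15.5% were called lower in I4 and 8.63% in H6. Those shares include the 13 themselves, 12 of the 78 genes called lower in I4 and 5 of the 44 in H6. The median log2 fold of the 13 was -0.65 in I4 and -0.55 in H6, beside a median of 0.004 and 0.003 over all genes. In experiment B none of the 13 was called lower, 2 were called higher in I4 and 1 in H6, and the median log2 fold was 0.07 and 0.17. There, 6.59% of all genes tested were called lower and 7.46% higher in I4, and 3.93% and 3.63% in H6. All 13 log2 folds were below 0 in both clones of experiment N, against 4 of 13 in I4 and 3 of 13 in H6 of experiment B.

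**Figure D1:**
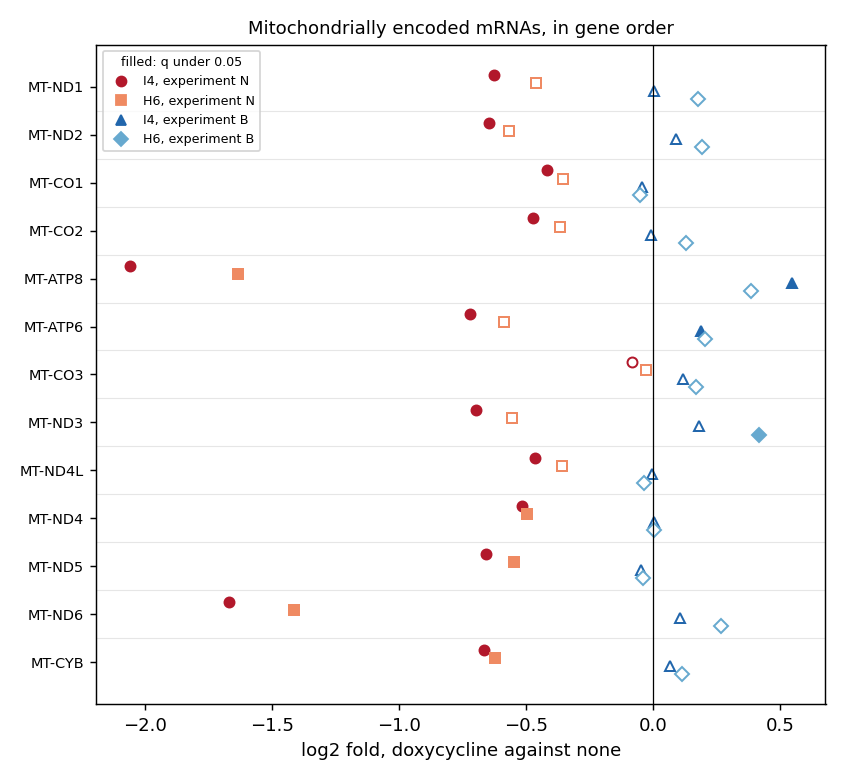
Log2 fold with doxycycline (horizontal axis) of each mitochondrially encoded mRNA (vertical axis, in the order of the genome) in the 4 comparisons; filled symbols have a q-value under 0.05, and the table holds no error. The experiment N symbols all lie left of 0, and MT-ATP8 and MT-ND6 lie farthest left.

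MT-ATP8, a small subunit of ATP synthase, had the largest fold of the 13 in both clones of experiment N. In experiment N the authors' deposited table lists it without doxycycline at 452 RPKM in I4 and 289 RPKM in H6, which implies 109 and 93.4 RPKM with doxycycline. The falls were 4.17-fold (q = 4.2e-07) and 3.10-fold (q = 0.0188) in the authors' deposited table. In experiment B the same gene was listed with doxycycline at 288 RPKM in I4 and 237 RPKM in H6, against an implied 197 and 181 RPKM without. It rose 1.46-fold in I4 (q = 1.96e-11), while the 1.31-fold higher value in H6 was not called (q = 0.459) in the authors' deposited table. The gene was thus called in opposite directions in the experiments of clone I4.

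MT-ATP6, the proton-channel subunit of ATP synthase on the same mRNA, moved less. It was listed without doxycycline at 1314 RPKM in I4 and 1115 RPKM in H6 in experiment N of the authors' deposited table, with an implied 798 and 744 RPKM with doxycycline. The fall was 1.65-fold in I4 (q = 0.00307), and the 1.5-fold lower value in H6 was not called (q = 0.103), in the authors' deposited table. In experiment B it was listed with doxycycline at 1406 RPKM in I4 and 1493 RPKM in H6, 1.14-fold higher (q = 0.0411) and 1.15-fold higher (q = 0.0793), by the authors' deposited table. Of these, the value in I4 passed the threshold. The coding regions of MT-ATP8 and MT-ATP6 thus differed in the size of their folds in experiment N although they share an mRNA, a difference that was not tested.

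MT-ND6, a membrane subunit of complex I, was second in experiment N. It was listed without doxycycline at 555 RPKM in I4 and 419 RPKM in H6 in the authors' deposited table, with an implied 175 and 158 RPKM with doxycycline. The falls were 3.18-fold (q = 2.6e-07) and 2.66-fold (q = 0.000423) in the authors' deposited table. In experiment B it was listed with doxycycline at 94.6 RPKM in I4 and 97.2 RPKM in H6, 1.08-fold higher (q = 0.535) and 1.2-fold higher (q = 0.446), by the authors' deposited table, neither called.

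The other complex I mRNAs moved by similar amounts. In I4 in experiment N, MT-ND1, MT-ND2, MT-ND3, MT-ND4, MT-ND4L and MT-ND5, all membrane subunits, fell 1.54-fold, 1.56-fold, 1.62-fold, 1.43-fold, 1.38-fold and 1.58-fold in the authors' deposited table, and the largest of their q-values was 0.0142, for MT-ND4. Their levels without doxycycline were 1217, 1105, 1046, 1409, 746 and 425 RPKM in the same order of the authors' deposited table. In H6, MT-ND4 (1.41-fold, q = 0.0448) and MT-ND5 (1.46-fold, q = 0.00936) fell, from 970 and 343 RPKM in the authors' deposited table. The rest were lower in H6 without a call: MT-ND1 1.38-fold (q = 0.103), MT-ND2 1.48-fold (q = 0.0609), MT-ND3 1.47-fold (q = 0.0795) and MT-ND4L 1.28-fold (q = 0.397) in the authors' deposited table. Similar folds thus passed the threshold in I4 and not in H6, and the difference between the clones was not tested.

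In experiment B, of the complex I mRNAs, MT-ND3 in H6 was the member called. It was listed with doxycycline at 926 RPKM, against an implied 694 RPKM without, and rose 1.33-fold (q = 3.18e-06) in the authors' deposited table, while in I4 it was 1.13-fold higher (q = 0.0665). MT-ND1 and MT-ND2 were 1.13-fold and 1.14-fold higher in H6 (q = 0.179 and 0.122), and 1.00-fold and 1.07-fold higher in I4 (q = 1.00 and 0.583), in the authors' deposited table. MT-ND4, MT-ND4L and MT-ND5 were within 1.03-fold of no change in both clones of experiment B in the authors' deposited table.

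MT-CYB, the mitochondrially encoded subunit of complex III, fell in both clones of experiment N. From 789 RPKM in I4 and 635 RPKM in H6 it fell 1.59-fold (q = 0.00459) and 1.54-fold (q = 0.0116) in the authors' deposited table. In experiment B it was listed with doxycycline at 1079 and 1103 RPKM, 1.05-fold and 1.08-fold higher (q = 0.806 and 0.590), by the authors' deposited table.

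Of the complex IV mRNAs, 2 fell in I4 and none was called in H6 in experiment N. MT-CO1, the catalytic subunit and the most abundant of the 13 per length in each comparison, was listed at 3530 RPKM in I4 and 2962 RPKM in H6 without doxycycline in the authors' deposited table. It fell 1.33-fold in I4 (q = 0.0386), and the 1.28-fold lower value in H6 was not called (q = 0.0544) in the authors' deposited table. MT-CO2, which receives electrons from cytochrome c, fell 1.38-fold from 1964 RPKM in I4 (q = 0.0318), and was 1.29-fold lower from 1559 RPKM in H6 (q = 0.199) in the authors' deposited table. MT-CO3 was the member of the 13 not called in I4: it was 1.06-fold lower from 1098 RPKM (q = 0.851) there and 1.02-fold lower from 876 RPKM in H6 (q = 1.00) in the authors' deposited table. Its gene begins at base 9207, the last base of MT-ATP6. In experiment B the 3 lay between 1.04-fold lower and 1.13-fold higher, none called, in the authors' deposited table.

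The order of the 13 folds in experiment N was close to the same in both clones. Across the 13 mRNAs the log2 folds of I4 and H6 correlated at Pearson r = 0.995 and Spearman rho = 0.956, and at r = 0.971 and rho = 0.927 over the 11 without MT-ATP8 and MT-ND6. The corresponding values in experiment B were r = 0.771 and rho = 0.857, and r = 0.827 and rho = 0.836 over the 11. These are correlations across genes of 1 genome, which share polycistronic transcripts and libraries, and are given as a description. Exon length, 207 to 1812 bases, correlated with the log2 fold of experiment N at r = 0.431 in I4 and 0.382 in H6 over the 13, and at -0.06 and -0.18 over the 11.

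The contrast of the experiments was of like size in both clones. The log2 fold in N minus that in B had a median over the 13 of -0.63 in I4 and -0.64 in H6, and was below 0 for 13 of 13 in each. Over the 10324 genes of at least 1 RPKM in all 4 comparisons the median was -0.02 in each clone. The difference for MT-ATP8 was -2.61 in I4, where no other of those genes had a lower one, and -2.02 in H6, where 1 did. For MT-ND6 it was -1.78 in I4, with 1 gene lower, and -1.68 in H6, with 3 genes lower. At the other end MT-CO3 differed by -0.20 in each clone, and 853 and 574 genes had a lower difference. The difference itself was not tested, as the table holds no values per well, and passage, sequencing provider and library kit changed together between the experiments, so their parts cannot be told apart.

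The levels without doxycycline also differed between the experiments, in both directions. MT-ND6 was 6.33-fold higher in experiment N than in B in I4 and 5.20-fold higher in H6, and 7 and 6 of the 10324 genes had at least that ratio. With doxycycline the implied ratio was 1.85 in I4 and 1.62 in H6. MT-ND6 is the one of the 13 on the minus strand, at chrM:14149-14673, and the libraries of experiment N do not separate its reads from those of the opposite strand. What this contributed to its level or to its fold was not tested. MT-ATP8 was 2.3-fold and 1.60-fold higher in N without doxycycline, in I4 and H6, and 312 and 972 genes had at least that ratio. With doxycycline it was 2.65-fold and 2.54-fold higher in B, in I4 and H6. MT-ND4L was 1.59-fold and 1.31-fold higher in N without doxycycline, whereas MT-ND4 was 1.39-fold and 1.62-fold higher in B. Other members higher in B were MT-ND1 (1.44-fold in I4 and 1.72-fold in H6), MT-ND2 (1.3-fold and 1.49-fold), MT-CYB (1.3-fold and 1.6-fold), MT-CO3 (1.32-fold and 1.38-fold) and MT-ND5 (1.23-fold and 1.39-fold). Over all 13 the median ratio of N to B without doxycycline was 1.01 in I4 and 0.862 in H6.

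The first places in the order of levels without doxycycline were similar across the comparisons, and lower places moved more. MT-ATP6 was in place 4 in experiment N and place 7 in experiment B of I4, and MT-ND3 in places 6 and 9 of H6. MT-CO1 was first in each comparison, and MT-CO2 was second except in I4 in experiment B, where MT-ND4 at an implied 1955 RPKM and MT-CO2 at 1945 RPKM lay side by side. The lowest places in experiment B were MT-ND6 at an implied 87.7 RPKM in I4 and 80.7 RPKM in H6 and MT-ATP8 above it, and in experiment N the lowest were MT-ND5 in I4 and MT-ATP8 in H6. Without values per well, neighbours in this order cannot be told apart by a test.

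**Figure D2:**
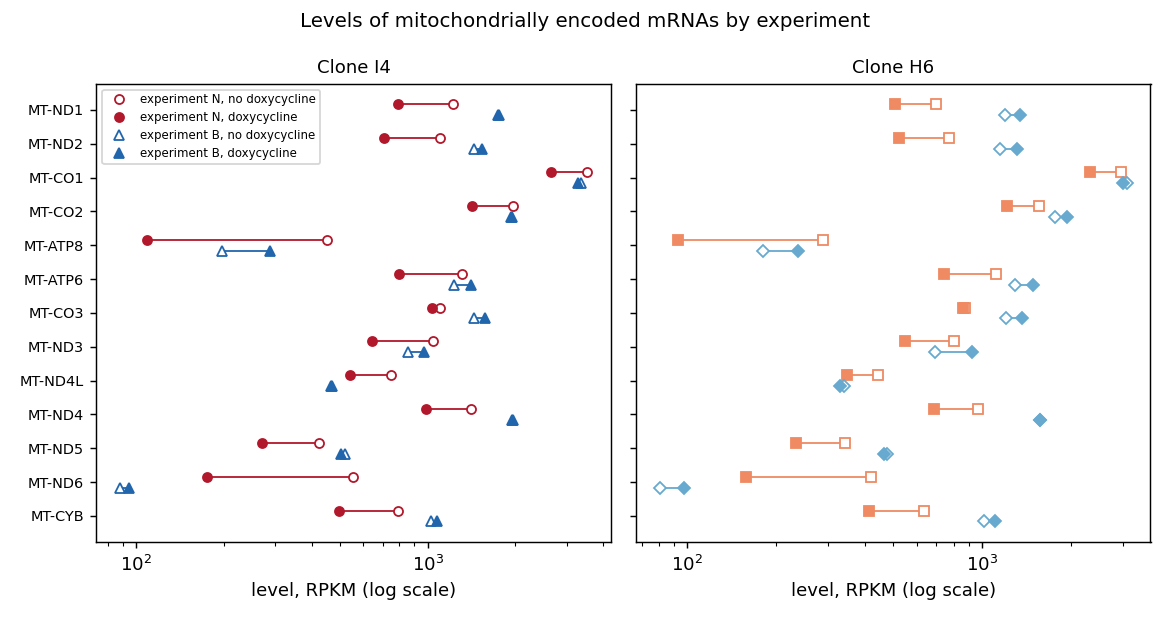
Level in RPKM (horizontal log axis) of the 13 mRNAs without doxycycline (open) and with it (filled) in each experiment, for clone I4 (left) and H6 (right); of each pair the higher value is the authors' and the lower is implied by the fold. MT-ND6 shows the widest gap between experiments and MT-ATP8 the longest line.

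Summed over the 13 mRNAs, level times length gives the share of reads they took. In experiment N the implied share went from 1.54% without doxycycline to 1.08% with it in I4, and from 1.19% to 0.885% in H6, 1.43 and 1.35 times as much without as with. In experiment B it went from 1.70% to 1.73% in I4, and from 1.48% to 1.55% in H6. The complex IV mRNAs made up 0.765% of reads and the complex I mRNAs 0.590% in untreated I4 of experiment N, and both were lower with doxycycline, at 0.587% and 0.381%. In bulk RNA, fewer cells expressing a gene and less of its RNA per cell cannot be told apart.

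**Figure D3:**
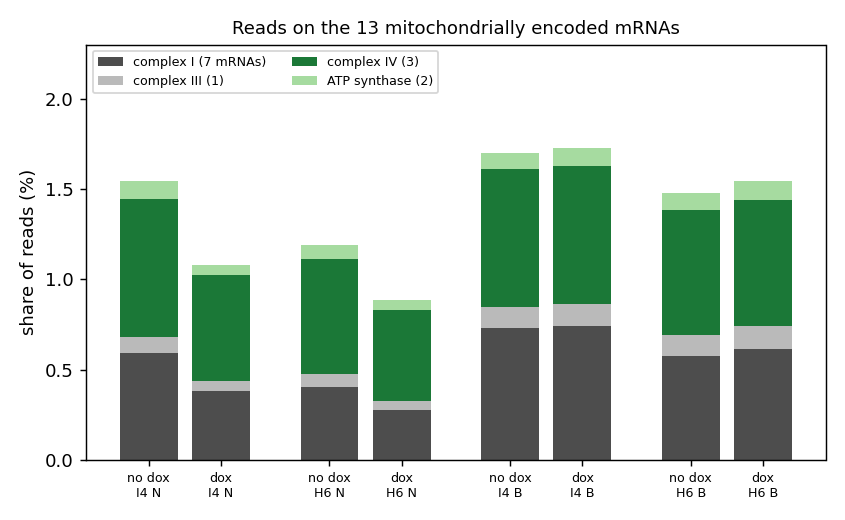
Implied share of reads (%) on the 13 mRNAs, stacked by the complex they encode, without and with doxycycline (dox) in each clone and experiment (for example I4 N, clone I4 in experiment N); the table allows no error bar. The doxycycline bars are shorter in experiment N, 1.08% against 1.54% in I4 and 0.885% against 1.19% in H6, and not in experiment B.

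Among the 25 nuclear members, no fold in experiment N was larger than the 1.39-fold fall of TWNK in I4. By the authors' deposited q-values, 6 were called lower in each clone in experiment N, none of them higher, and 2 in I4 and 1 in H6 were called lower in experiment B, with 1 called higher in H6. Over all genes tested the shares called lower were 8.53% in I4 and 7.07% in H6 in experiment N, and 6.59% and 3.93% in experiment B, so the counts in experiment B lie near that background. The median log2 fold was -0.09 in each of the 4 comparisons, beside a median between 0.002 and 0.011 over all genes. In all, 17 of the 25 were never called, and the share of all genes never called was not worked out. Levels ran from 1.31 RPKM for MTERF4 to 101 RPKM for SSBP1.

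TWNK, the helicase that unwinds mitochondrial DNA at the replication fork, was the one member called in all 4 comparisons. It was listed without doxycycline at 7.02 and 6.57 RPKM in experiment N and 6.79 and 6.85 RPKM in experiment B, in I4 and H6 of the authors' deposited table. It fell 1.39-fold (q = 0.000237) and 1.3-fold (q = 4.13e-05) in experiment N and 1.22-fold (q = 0.00816) and 1.24-fold (q = 0.0208) in experiment B, from the authors' deposited table. Of the 15063 genes tested in all 4 comparisons, 1.97% were called lower in each. TWNK overlaps MRPL43 on the opposite strand of chromosome 10 by 149 bases, and MRPL43 lay between 1.00-fold lower and 1.13-fold higher, by the authors' deposited table.

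The other replication genes were less even. SSBP1, which coats single-stranded mitochondrial DNA, fell 1.22-fold from 84.5 RPKM in I4 (q = 0.000563) and 1.18-fold from 71.2 RPKM in H6 (q = 0.0064) in experiment N, and was 1.07-fold and 1.03-fold lower without a call in experiment B, from the authors' deposited table. POLG2, the accessory subunit of the DNA polymerase, was 1.09-fold to 1.23-fold lower at 6.52 to 7.52 RPKM, and the fall was called in H6 in experiment N (1.21-fold, q = 0.0212) in the authors' deposited table. POLG, the catalytic subunit, was 1.05-fold lower in I4 and 1.01-fold higher in H6 in experiment N, and 1.04-fold and 1.03-fold lower in experiment B, at 6.54 to 9.24 RPKM with no call, in the authors' deposited table. The helicase and the single-strand binding protein thus fell in experiment N while the polymerase's catalytic subunit was not called.

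Transcription factors and the polymerase followed. POLRMT, the RNA polymerase, fell 1.33-fold from 18.0 RPKM in I4 (q = 0.00128) and 1.16-fold from 18.9 RPKM in H6 (q = 0.0199) in experiment N of the authors' deposited table. In experiment B it fell 1.22-fold from 7.50 RPKM in I4 (q = 0.00537) and was 1.1-fold lower from 9.04 RPKM in H6 (q = 0.613) in the authors' deposited table. Its level without doxycycline was 2.40-fold and 2.09-fold higher in N than in B, and 258 and 315 of the 10324 genes had at least that ratio. TFAM, which packages mitochondrial DNA and bends its promoters, fell 1.25-fold from 30.6 RPKM in I4 (q = 6.91e-05) and 1.23-fold from 27.9 RPKM in H6 (q = 0.000244) in experiment N, and was 1.02-fold and 1.07-fold lower from 23.3 and 18.4 RPKM in experiment B (q = 1.00 and 0.811) of the authors' deposited table. TFB2M, which opens the promoter, fell 1.17-fold from 19.3 RPKM in I4 in experiment N (q = 0.0188) in the authors' deposited table. It was 1.12-fold lower in H6 there (q = 0.165), and 1.09-fold and 1.06-fold lower in I4 and H6 of experiment B (q = 0.442 and 0.940), none called. TEFM, the elongation factor, was 1.08-fold higher in each clone in experiment N and 1.01-fold higher in each in experiment B, at 2.52 to 2.83 RPKM with no call, in the authors' deposited table. TFB1M, an rRNA methyltransferase, and the factors MTERF1, MTERF3 and MTERF4 were not called, and their log2 folds lay between -0.20 and 0.23. Of the 8 transcription genes, then, 3 fell in I4 and 2 in H6 in experiment N, 1 in I4 in experiment B and none in H6 there, beside the shares of all genes called lower given above (8.53%, 7.07%, 6.59% and 3.93%).

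RNA handling genes were mostly not called. ELAC2, which cuts the tRNAs out of the long transcripts, fell 1.16-fold in I4 (q = 0.0181) and 1.17-fold in H6 (q = 0.0132) in experiment N and was 1.14-fold lower in each clone of experiment B (q = 0.0629 and 0.199), at 23.4 to 26.6 RPKM in the authors' deposited table. LRPPRC, which with SLIRP stabilises the mitochondrial mRNAs, was 1.12-fold and 1.05-fold lower in experiment N (q = 0.112 and 0.676), and 1.04-fold lower and 1.00-fold higher in experiment B (q = 0.960 and 1.00), in I4 and H6 of the authors' deposited table. SLIRP was 1.07-fold and 1.11-fold higher in experiment N (q = 0.752 and 0.227) and 1.14-fold and 1.06-fold lower in experiment B (q = 0.0801 and 0.854) of the authors' deposited table. The span of SLIRP, introns included, shares 43506 bases with SNW1 on the opposite strand, which experiment N does not separate. POLG (with FANCI), MTERF4 (with SNED1) and FASTKD3 (with MTRR) also lie across opposite-strand genes. What this contributed to their folds was not tested. PNPT1, a 3' to 5' exoribonuclease that acts with the helicase SUPV3L1, was 1.14-fold lower in each clone in experiment N (q = 0.0709 and 0.0716), and 1.14-fold and 1.11-fold lower in I4 and H6 in experiment B (q = 0.0814 and 0.504), in the authors' deposited table. SUPV3L1 lay between 1.09-fold lower and 1.04-fold higher with no call in the same table. The poly(A) polymerase MTPAP was 1.01-fold to 1.11-fold lower, and GRSF1, which binds G-rich mitochondrial RNA, 1.06-fold to 1.1-fold higher, neither called, in the authors' deposited table.

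The FASTK family, RNA-binding proteins of which several shape individual mitochondrial mRNAs, had 1 call among its 6 genes over the 4 comparisons. In the comparison of that call, 3.63% of all genes tested were called higher. FASTKD5, needed for processing of transcript ends that lack a tRNA, rose 1.2-fold in H6 in experiment B (q = 0.0382), to 18.0 RPKM, and was 1.02-fold to 1.12-fold higher without a call elsewhere in the authors' deposited table. It lies over its whole length within UBOX5 on the same strand, so reads of the pair can be shared. FASTK, FASTKD1, FASTKD2, FASTKD3 and TBRG4 had log2 folds from -0.28 to 0.06. The level of FASTK without doxycycline was 2.0-fold and 1.86-fold higher in N than in B, and 550 and 534 of the 10324 genes had at least that ratio.

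**Figure D4:**
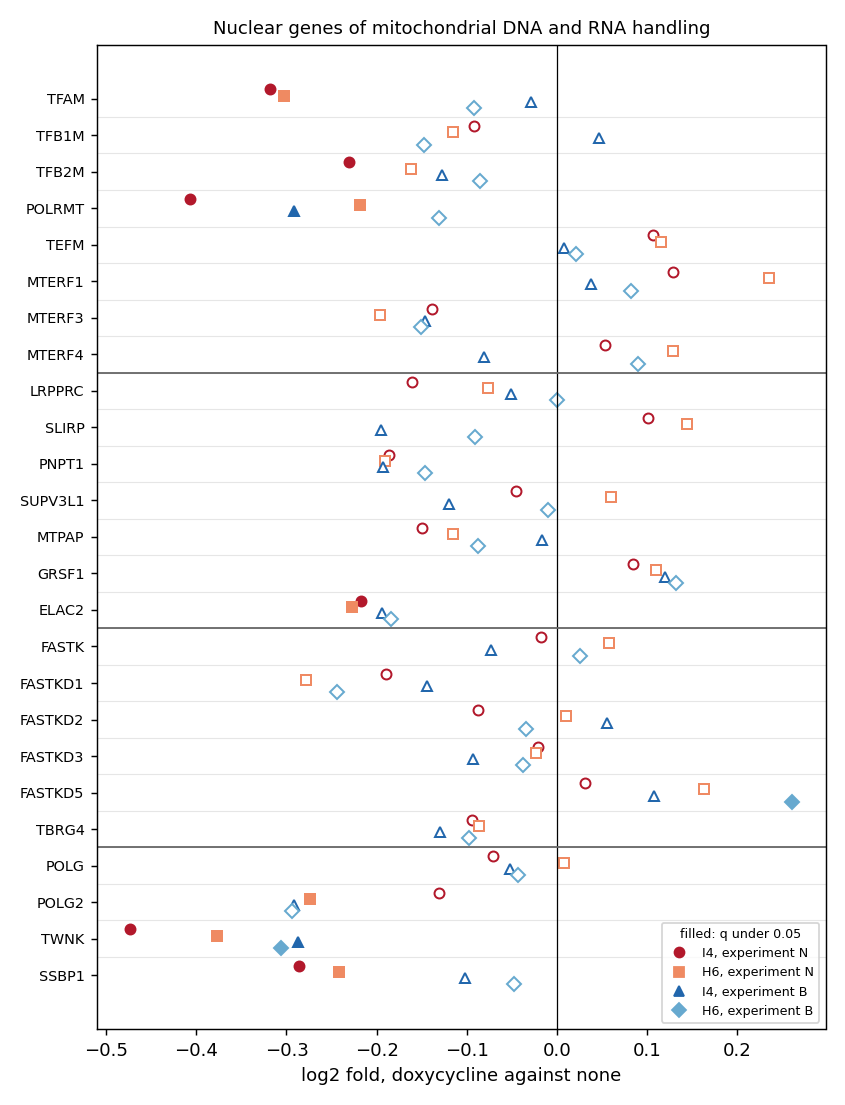
Log2 fold with doxycycline (horizontal axis) of the 25 nuclear members (vertical axis, grouped by lines into transcription, RNA handling, FASTK family and DNA replication); filled symbols have a q-value under 0.05. TWNK carries 4 filled symbols, and the axis is narrower than for the mitochondrial mRNAs.

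TFAM, POLRMT, SSBP1 and ELAC2 were called lower in both clones of experiment N, and their promoters are shown for that reason; TWNK was also called in both. In experiment B, POLRMT in I4 was the one call among these 4. The sequences are RefSeq's on GRCh38.p14, 250 bases before to 50 after the gene's start, read in the gene's direction, and 22 of the 25 nuclear members matched. Capitals mark matches, on either strand, to GCGC followed by any base and TGCGC, the core letters of the motif of NRF1, an activator of nuclear mitochondrial genes, and CCGGAAG, the core letters of the ETS family motif, which includes GABPA. TFAM is at chr10:58385160-58385459 on the plus strand, POLRMT at chr19:633488-633787 on the minus strand, SSBP1 at chr7:141738071-141738370 on the plus strand (the first of 3 listed starts) and ELAC2 at chr17:13017978-13018277 on the minus strand.
TFAM: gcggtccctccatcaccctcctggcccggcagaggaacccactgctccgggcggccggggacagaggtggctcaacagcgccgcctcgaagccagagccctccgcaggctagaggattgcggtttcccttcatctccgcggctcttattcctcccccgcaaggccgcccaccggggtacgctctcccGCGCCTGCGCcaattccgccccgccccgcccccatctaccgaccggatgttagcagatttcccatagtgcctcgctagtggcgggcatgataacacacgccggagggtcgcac
POLRMT: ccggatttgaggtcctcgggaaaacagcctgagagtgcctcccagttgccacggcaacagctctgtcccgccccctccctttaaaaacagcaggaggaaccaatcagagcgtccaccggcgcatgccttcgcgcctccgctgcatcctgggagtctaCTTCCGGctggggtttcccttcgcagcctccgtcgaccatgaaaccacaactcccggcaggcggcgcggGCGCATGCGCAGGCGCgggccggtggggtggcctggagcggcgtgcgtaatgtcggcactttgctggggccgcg
SSBP1: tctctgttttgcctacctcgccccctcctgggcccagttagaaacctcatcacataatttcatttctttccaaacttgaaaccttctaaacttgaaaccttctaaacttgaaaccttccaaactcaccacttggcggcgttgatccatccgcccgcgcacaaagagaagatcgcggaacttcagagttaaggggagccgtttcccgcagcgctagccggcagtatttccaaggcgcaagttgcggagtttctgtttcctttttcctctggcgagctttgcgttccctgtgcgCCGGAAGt
ELAC2: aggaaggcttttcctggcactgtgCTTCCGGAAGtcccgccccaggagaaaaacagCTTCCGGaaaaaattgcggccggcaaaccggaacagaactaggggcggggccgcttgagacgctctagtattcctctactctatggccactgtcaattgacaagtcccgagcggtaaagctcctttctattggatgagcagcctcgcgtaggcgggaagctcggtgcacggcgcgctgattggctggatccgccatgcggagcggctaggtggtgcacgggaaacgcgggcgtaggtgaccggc
TFAM holds 1 match to the NRF1 letters, POLRMT 2 that overlap each other and 1 to the ETS letters, SSBP1 1 to the ETS letters and ELAC2 3. Over all 35116 promoters, 5.78% hold the NRF1 letters and 10.3% the ETS letters, and by gene the shares are 6.98% and 12.2%. Of the 22 members matched, 4 hold the first and 10 the second. A match is a description of the letters and not a measured binding site.

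Some nuclear-encoded partners of the mitochondrial mRNAs rose in experiment N. Of 76 nuclear subunits of the respiratory complexes, 23 were called higher and 1 lower in I4, and 20 higher and 2 lower in H6, in experiment N of the authors' deposited table, beside the shares of all genes given above. In experiment B, 2 were called lower in I4 and 1 higher in H6. Complex IV stood at 7 of 11 higher in I4 and 6 of 11 in H6, with median log2 folds of 0.34 and 0.25 against -0.41 and -0.35 for its mitochondrially encoded mRNAs, and in experiment B the medians of the nuclear subunits were -0.01 in each clone. COX5B and COX6C, subunits of that complex, rose 1.32-fold and 1.38-fold in I4 and 1.36-fold and 1.3-fold in H6 in experiment N of the authors' deposited table. Complex I had 8 of 37 called higher in I4 and 9 of 37 in H6 with 1 lower in each, and nuclear ATP synthase subunits had 4 of 15 and 3 of 15 higher, with 1 lower in H6. ATP5ME, a subunit of that synthase, rose 1.29-fold in I4 and 1.43-fold in H6, and ATP5MC1 was the one that fell in H6 (1.14-fold, q = 0.0427), in the authors' deposited table. Complex II, which has no mitochondrially encoded subunit, had none of 4 called in any comparison. Short genes were also called higher more often than lower in these comparisons: of 120 non-mitochondrial genes of at least 1 RPKM and at most 1000 exon bases, 20% were called higher and 10% lower in I4 in experiment N with a median log2 fold of 0.13, and of 118 in H6 21.2% were called higher and 7.63% lower with a median of 0.08. Of such genes with more than 2000 exon bases, 9.87% were called higher and 12.8% lower in I4 in experiment N. In H6 the shares were 9.21% and 10.8%, and the median log2 fold was -0.01 in each clone. The median exon length was 2468.5 bases for the nuclear subunits and 784 bases for the mitochondrial mRNAs, which were lower in the same comparisons. The part of length in either result was not tested.

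**Figure D5:**
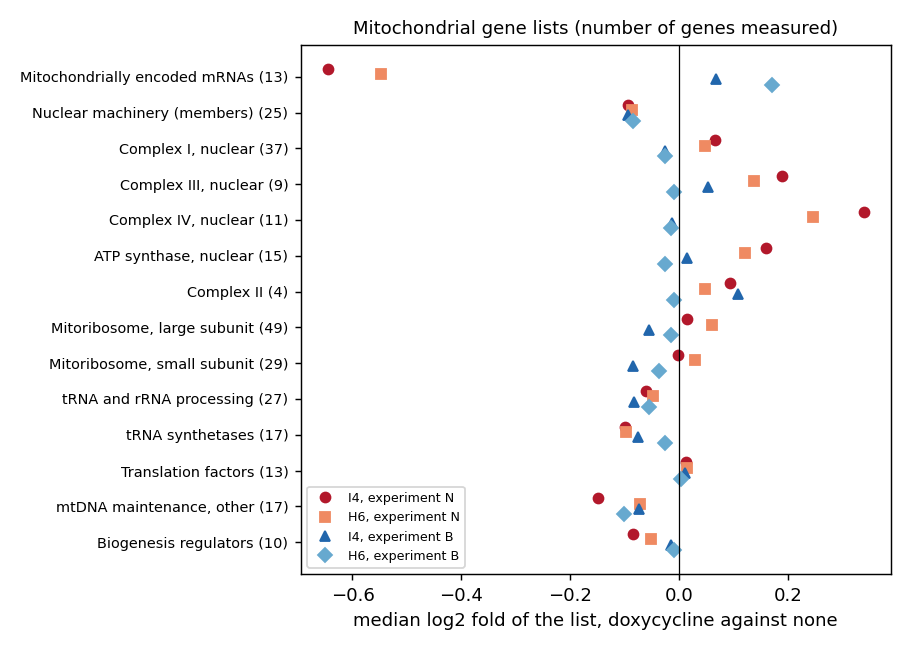
Median log2 fold with doxycycline (horizontal axis) of each gene list (vertical axis, genes measured in parentheses) in the 4 comparisons; no error is shown. The mitochondrially encoded mRNAs lie at -0.65 and -0.55 in experiment N, and the nuclear complex IV subunits at 0.34 and 0.25.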

How the data were processed

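Poly(A)-selected RNA of 23 PC-3 libraries in 8 groups was sequenced, per the labels' protocols. The genome build was hg38, per the submitters' processing notes. The sources used here name no aligner, counter, annotation release or test. The deposited file is a table of 4 comparisons by the authors. Its level, made by the authors, is the mean of whichever group was higher, in RPKM. That unit was read from the values: among the least expressed genes, level times GENCODE v29 exon length falls on a few values, each shared by many genes. Its fold is the authors' signed ratio and its q-value the authors' adjusted p.

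The table holds no value per library, so count models, replicate error and a check for duplicate libraries could not be run, and genes were called at the authors' q-value under 0.05. Folds were put on the log2 scale with pandas 2.3.3 and Python 3.11.15; depth steps needed at least 30 genes, and counting and depth recovery were tested on simulated data. P-values of wells of 1 clone measure the spread between wells, which may be technical. Names matched GENCODE for 21376 rows. Mitochondrial mRNAs are each described; nuclear members called in at least 3 comparisons, and the core transcription, replication and stability genes, are given for all 4. SSBP1, POLG2, ELAC2 and FASTKD5 are named because they were called, after their values were seen. Of other lists, at most 4 genes each are named, by number of calls and then size of change. The members and lists were chosen with earlier results of these data known. Alternatives were a q-value under 0.01, a fold of at least 1.2, centring on the median of all genes of at least 1 RPKM, and a level of at least 5 RPKM. Others left out MT-ATP8, MT-ATP6, MT-ND4L, MT-ND4 and MT-ND6, which overlap or lie on the other strand, from the mitochondrial medians, or the FASTK family from the nuclear ones. No setting left out nuclear members for overlapping other genes.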

Additional observations from a re-analysis of the deposited data

Results flagged for a closer look

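MT-ATP8 and MT-ATP6 in clone I4 were called with opposite signs in the 2 experiments. The log2 fold in experiment N minus that in experiment B was -2.61 for MT-ATP8 and -0.91 for MT-ATP6. The difference itself was not tested.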

How the results depend on the processing

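Of 78 values recomputed under an alternative, 69 stayed within 1.5 times (counts) or 0.1 on the log2 scale (medians), and none changed sign. With a q-value under 0.01, in H6 in experiment N 2 mitochondrial mRNAs and 3 nuclear members were called lower, in I4 in experiment B 1 mitochondrial mRNA was called higher, in H6 in experiment B 0 nuclear members were called higher and 0 lower, and 4 nuclear complex IV subunits were called higher in I4 in experiment N, an alternative chosen after seeing the data. With a fold of at least 1.2, 3 nuclear members were called lower in H6 in experiment N, 1 mitochondrial mRNA higher in I4 in experiment B and 0 nuclear members higher in H6 there. Leaving out each replicate was not run, and no paired analysis was possible because the table gives no value per library. Each mitochondrial mRNA rests on at least 941 reads per library at the listed mean, which is that of the higher group. The lower group rests on fewer at the same depth, and the spread between wells is not known.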

Other observations

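Other genes of mitochondrial gene expression are given by list, beside the shares of all genes tested: in experiment N 8.53% were called lower and 7.18% higher in I4 and 7.07% and 6.57% in H6, and in experiment B 6.59% and 7.46% in I4 and 3.93% and 3.63% in H6. Mitochondrial tRNA synthetases had 5 of 17 called lower in each clone in experiment N, none called higher, and in experiment B had 2 lower in I4 and 1 in H6. VARS2, which charges the valine tRNA, fell in 3 comparisons of the authors' deposited table, by 1.2-fold (I4, experiment N), 1.26-fold (H6, experiment N) and 1.25-fold (H6, experiment B). The 1.12-fold lower value for I4 in experiment B was not called (q = 0.207). Of 27 genes of tRNA and rRNA processing, 1 was called lower in each clone in experiment N and none higher in any comparison. In experiment B 2 were called lower in I4 and 1 in H6. These counts lie near or below the shares of all genes called lower. PUS1, which modifies tRNA, was called lower in 3 comparisons. Mitochondrial ribosomal proteins had 3 higher and 4 lower of 78 in I4 and 7 higher and 3 lower in H6 in experiment N, and experiment B gave 1 higher and 7 lower in I4 and 1 higher and 2 lower in H6. Translation factors had 3 of 13 called higher in I4 and 2 in H6 in experiment N, and 2 and 1 called lower in experiment B. MTIF3, an initiation factor, rose 1.38-fold in I4 and 1.34-fold in H6 in experiment N, by the authors' deposited table.

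Of 10 regulators, 3 were called lower in each clone in experiment N, with 1 higher in H6. That one was GABPA, which rose 1.19-fold there (q = 0.00516) and was 1.08-fold to 1.16-fold higher without a call elsewhere, by the authors' deposited table. In experiment B, 3 were called lower in I4 and 2 in H6. PPARGC1B and MYC were called lower in all 4 comparisons, and PPRC1 in 3. Of 17 other maintenance genes, 2 were called higher and 4 lower in I4 in experiment N, and 2 higher and 2 lower in H6. In experiment B, 3 were called higher and 2 lower in I4, and 1 higher and 1 lower in H6. Among them ATAD3B (lower) and SLC25A36 (higher) were called in all 4, and TK2 (higher) and TOP1MT (lower) in 3. MRPS6, a mitochondrial ribosomal protein, rose 1.29-fold to 1.36-fold and was also called in all 4. Of 15063 genes tested in all 4, 1.97% were called lower in each. The shares called higher in each, or called in 3, were not worked out. PPARGC1B, a coactivator of nuclear mitochondrial genes, fell 1.57-fold and 1.48-fold in experiment N and 1.59-fold and 1.58-fold in experiment B, in I4 and H6 of the authors' deposited table, from 1.13 to 1.71 RPKM. MYC, a transcription factor with nuclear mitochondrial genes among its targets, fell by 1.2-fold (I4) and 1.35-fold (H6) in experiment N and by 1.33-fold (I4) and 1.4-fold (H6) in experiment B, by the authors' deposited table. PPRC1, a coactivator related to PPARGC1B, fell 1.27-fold, 1.19-fold and 1.35-fold in I4 and H6 of experiment N and I4 of experiment B, and the 1.19-fold lower value in H6 of experiment B was not called (q = 0.0522), in the authors' deposited table. ATAD3B, a membrane protein linked to the mitochondrial nucleoid, fell 1.31-fold to 1.5-fold, and SLC25A36, a carrier of pyrimidine nucleotides into mitochondria, rose 1.3-fold to 1.37-fold, both in all 4 comparisons listed in the authors' deposited table. ATAD3B has near-identical copies beside it, so its reads can be shared with them.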
